A study of Mus musculus with 7 samples.

Results

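Fibroblast growth factor (FGF) ligands and receptors of the hair cycle were followed in sorted hair follicle cells by RNA sequencing. The set was fixed by name and held 9 genes, the ligands Fgf1, Fgf2, Fgf5, Fgf7, Fgf10 and Fgf18 and the receptors Fgfr1, Fgfr2 and Fgfr3. Of these, 7 had a row among the 15415 genes of the deposited count table and 6 passed the filter on low counts. Fgf2 and Fgf10 were absent from the symbols of the table and were not analysed here. The set and the gene lists below were chosen with earlier results of these data known. Their shares beside those of all genes are therefore descriptions only. The samples were Lgr5-positive, CD45-negative live cells from mouse back epidermis, sorted on a green fluorescent protein signal. Lgr5 marks hair follicle stem cells and their near progeny, and CD45 is a leukocyte surface protein. The animals were C57Bl6 x B10D2 crosses. They were 45 days old in the Telogen group (the resting phase, 3 samples) and 35 days old in the Anagen group (the growth phase, 4 samples). No treatment was named beyond depilatory cream before harvest, and the labels gave neither the reporter allele nor whether a sample was 1 animal or a pool. Age and hair cycle phase therefore cannot be told apart, and the p-values rest on sample-to-sample spread that may be technical only.

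FGF ligands are secreted proteins that bind receptor tyrosine kinases together with heparan sulfate on the cell surface, and the receptors signal through the adaptor FRS2, RAS and ERK. In skin, FGF18 is known from the resting bulge, where it holds follicles in telogen, and FGF5 is known as the factor whose loss in mice gives abnormally long hair because anagen is prolonged. FGF7 and FGF10 are made mainly by the dermal papilla, the cluster of fibroblasts at the base of the follicle, and act on an epithelial splice form of FGFR2 in the neighbouring germ.

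The leading ligand and receptor transcripts of the sorted cells differed between the phases. Fgf18, Fgf1, Fgfr2 and Fgfr1 were higher in Telogen, and Fgf5 and Fgfr3 were higher in Anagen. Of the 6 members tested, 4 fell and 2 rose in Anagen, against 49.5% of all 12266 genes that passed the same test in either direction, 25.8% higher and 23.7% lower. All 6 changed by 2-fold or more, 3.81-fold being the smallest, and 41.3% of all genes passed with such a change. The Telogen and Anagen libraries did not overlap for any of the 6, as was also the case for 54.5% of all genes tested.

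The sequences before the start of 4 of these genes are shown to give their genomic context, for each phase a ligand and a receptor that were higher in it. Each runs 5′ to 3′ on the strand of its gene and ends 1 base before the start of the RefSeq transcript, with CpG dinucleotides in capitals (RefSeq, GRCm38.p6, the assembly also called mm10). Fgf18 lies on the minus strand of chromosome 11 (window chr11:33147401-33147650), Fgf5 on the plus strand of chromosome 5 (chr5:98253934-98254183), Fgfr2 on the minus strand of chromosome 7 (chr7:130266809-130267058) and Fgfr3 on the plus strand of chromosome 5 (chr5:33721474-33721723).
Fgf18: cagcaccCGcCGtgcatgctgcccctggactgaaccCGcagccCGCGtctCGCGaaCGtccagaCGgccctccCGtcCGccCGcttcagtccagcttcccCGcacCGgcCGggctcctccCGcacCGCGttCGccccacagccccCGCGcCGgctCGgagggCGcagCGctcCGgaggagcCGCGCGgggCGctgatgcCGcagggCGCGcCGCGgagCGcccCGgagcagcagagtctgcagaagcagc
Fgf5: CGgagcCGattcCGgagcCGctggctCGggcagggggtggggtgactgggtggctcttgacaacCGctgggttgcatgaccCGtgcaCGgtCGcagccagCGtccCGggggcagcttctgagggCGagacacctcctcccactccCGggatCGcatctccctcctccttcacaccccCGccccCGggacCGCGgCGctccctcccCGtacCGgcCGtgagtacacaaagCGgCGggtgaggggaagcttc
Fgfr2: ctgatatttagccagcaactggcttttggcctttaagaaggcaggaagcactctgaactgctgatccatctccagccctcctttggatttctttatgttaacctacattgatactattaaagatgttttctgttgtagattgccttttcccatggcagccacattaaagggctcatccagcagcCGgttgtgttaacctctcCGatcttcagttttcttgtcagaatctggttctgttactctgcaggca
Fgfr3: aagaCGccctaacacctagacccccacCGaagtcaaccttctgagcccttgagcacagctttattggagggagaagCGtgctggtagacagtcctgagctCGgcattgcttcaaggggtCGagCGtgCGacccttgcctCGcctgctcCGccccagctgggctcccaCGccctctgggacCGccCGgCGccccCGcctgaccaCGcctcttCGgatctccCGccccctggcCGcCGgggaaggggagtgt
The Fgf18 window held 37 CpG dinucleotides in 250 bases, the Fgf5 window 24, the Fgfr3 window 19 and the Fgfr2 window 2. Over 32851 windows of the same length before mouse gene starts, the median was 6 and the upper quartile 16. GC content was 77.2% for Fgf18, 70.8% for Fgf5, 66.8% for Fgfr3 and 44.0% for Fgfr2, against a median of 52.4%. CpG density did not follow the direction of change, since the richest window belonged to a gene that fell and the poorest to another that fell. Searched on both strands, none of 6 short motifs was spelled out in any of the 4 windows. These were CTTTGAT (TCF/LEF, in 3.21% of all windows), TGTTTAC (FOX, 3.17%), TTTTCCA (NFAT, 5.93%), TGANTCA (AP-1, 6.75%), CCGGAAG (ETS, 6.91%) and TATAAA (the box bound by TBP, 12.4%).

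Fgf18 was the Telogen ligand with the smallest spread. Levels below are normalised read counts in CPM, read counts relative to library sizes scaled by TMM (trimmed mean of M-values). Its level was 257, 252 and 228 CPM in Telogen 1 to 3 and 0.936, 0.441, 0.902 and 3.43 CPM in Anagen 1 to 4. All Telogen libraries were thus high and all Anagen libraries close to 0, where the counts were 13, 8, 14 and 48 reads, and Anagen 4 stood above the other three. On the log2 scale Anagen minus Telogen was -7.45 ± 0.55 (SE), a level 174-fold lower (adjusted p = 3.49e-06, edgeR quasi-likelihood test with Benjamini-Hochberg adjustment). It was 329-fold lower without Anagen 4 and 114-fold lower without Anagen 1 and Anagen 2. Of the 12266 genes tested, 98 had a log2 fold change at least as far below 0. The row of the table (chromosome 11, 33116978 to 33147400, mm10) carries NR_102395, a non-coding transcript record of the Fgf18 locus in RefSeq, so the counts cannot be assigned to the coding form alone.

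Fgf1, which can bind all FGF receptors and lacks a classical secretion signal, was the other Telogen ligand. It stood at 309, 248 and 736 CPM in Telogen and at 7.35, 6.45, 4.57 and 9.65 CPM in Anagen. The Telogen libraries agreed less than for Fgf18, Telogen 3 being highest, and the lowest Telogen library was still above every Anagen library. Its log2 fold change was -5.94 ± 0.43 (SE; edgeR, adjusted p = 2.63e-06), a 61.5-fold lower level, or 39.6-fold without Telogen 3. The within-group coefficient of variation was 61.7% for Fgf1 in Telogen and 6.39% for Fgf18. Fgf1 lies on chromosome 18 (38838673 to 38918699).

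Fgf5 was the Anagen ligand. It had 0, 10 and 0 reads in Telogen and 738, 1058, 864 and 551 reads in Anagen, or 0, 1.598 and 0 CPM against 53.2, 58.3, 55.6 and 39.4 CPM. Every Telogen read came from Telogen 2, and no Anagen library came near the Telogen range. The log2 fold change was 6.46 ± 0.76 (SE; edgeR, adjusted p = 6.27e-05), 88.1-fold higher. Without Telogen 2 the Telogen count was 0 and the level at least 185-fold higher, against a floor of 3 counts over the remaining Telogen libraries. Fgf5 lies on chromosome 5 (98254184 to 98277033).

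Fgf7, the dermal papilla ligand, was barely detected. It had 0 reads in all Telogen libraries and 4, 2, 0 and 0 reads in Anagen 1 to 4, at most 0.288 CPM, and did not pass the filter. The limit that a count of 0 allows, 3 counts, was 0.465 to 0.589 CPM of the unscaled Telogen totals, so a difference was not detectable at this depth. Both libraries with Fgf7 reads were those with the most fibroblast RNA. The summed level of 15 fibroblast genes was 1116 and 1558 CPM in Anagen 1 and Anagen 2, 102 and 139 CPM in Anagen 3 and Anagen 4, and 99.9 to 129.6 CPM in Telogen. Different genes made up the similar sums. In Anagen 3 and Anagen 4, Col3a1 stood at 19.1 and 20.4 CPM (Telogen mean 0.423) and Dcn at 20.6 and 20.3 CPM (Telogen 0). Fbln1 stood at 1.35 and 0.643 CPM there (Telogen mean 51.3). Over all libraries, 8 of 13 tested fibroblast genes rose and 2 fell, against 25.8% and 23.7% of all genes. The part of fibroblast RNA in the Fgf7 reads was not tested.

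**Figure D1:**
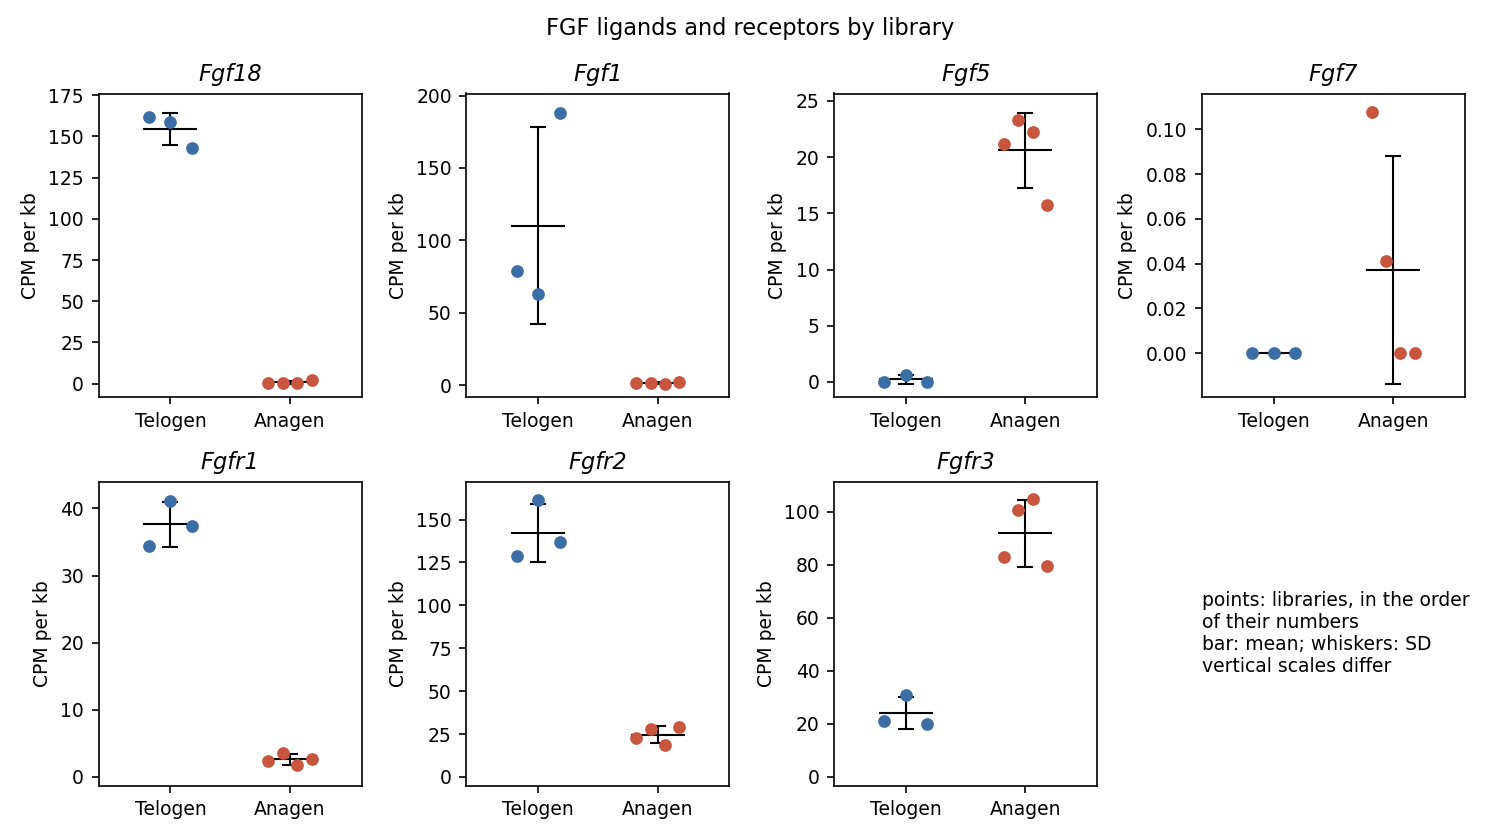
Level of each measured FGF ligand and receptor (CPM per kilobase of gene length, TMM-scaled) in 3 Telogen and 4 Anagen libraries; points are libraries, horizontal lines the mean and whiskers the SD, with a separate vertical scale per gene. Fgf18, Fgf1, Fgfr1 and Fgfr2 lie higher in every Telogen library and Fgf5 and Fgfr3 in every Anagen library, while Fgf7 stays at 0.108 CPM per kilobase or less.

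Among the receptors, Fgfr2, the main epithelial FGF receptor, was the leading transcript of Telogen. It stood at 671, 842 and 714 CPM in Telogen and at 119, 147, 98.0 and 152 CPM in Anagen. The groups were well apart and the Anagen cells kept a clear level, unlike for the ligand Fgf18. The log2 fold change was -2.53 ± 0.20 (SE; edgeR, adjusted p = 5.08e-06), 5.76-fold lower, and 9.26-fold lower with offsets for GC content and gene length. The row covers chromosome 7, 130162451 to 130266808, and gene-level counts do not tell its splice forms apart.

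Fgfr1, whose known sites in skin include both epithelium and mesenchyme, fell further. It stood at 174, 207 and 188 CPM in Telogen and at 12.1, 18.4, 9.08 and 13.2 CPM in Anagen, so that the lowest Telogen library lay far above the highest Anagen library. The log2 fold change was -3.85 ± 0.26 (SE; edgeR, adjusted p = 1.88e-06), 14.4-fold lower, and 24.4-fold lower under GC and length offsets. Without Anagen 1 and Anagen 2, the libraries with the highest fibroblast sums, it was -4.09 ± 0.35 (SE). Its exons (chromosome 8, 25518759 to 25575718) share 164 bases with the antisense gene Gm16159, which the table does not list, and the sources used here do not say whether counting used strand.

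Fgfr3, a receptor best known for restraining bone growth and for activating mutations in human seborrheic keratoses, went the other way. It stood at 90.5, 132 and 85.8 CPM in Telogen and at 353, 430, 446 and 338 CPM in Anagen. Every Anagen library exceeded every Telogen library. The log2 fold change was 1.93 ± 0.22 (SE; edgeR, adjusted p = 5.29e-05), 3.81-fold higher. This was the smallest change of the 6 members, and offsets for GC content and length lowered it to 2.26-fold (adjusted p = 0.00273, edgeR). Of all genes tested, 13.1% had a log2 fold change at least as high, against 2.40% for Fgf5. Its exons (chromosome 5, 33721724 to 33737068) share 948 bases with an opposite-strand gene, G630022F23Rik.

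**Figure D2:**
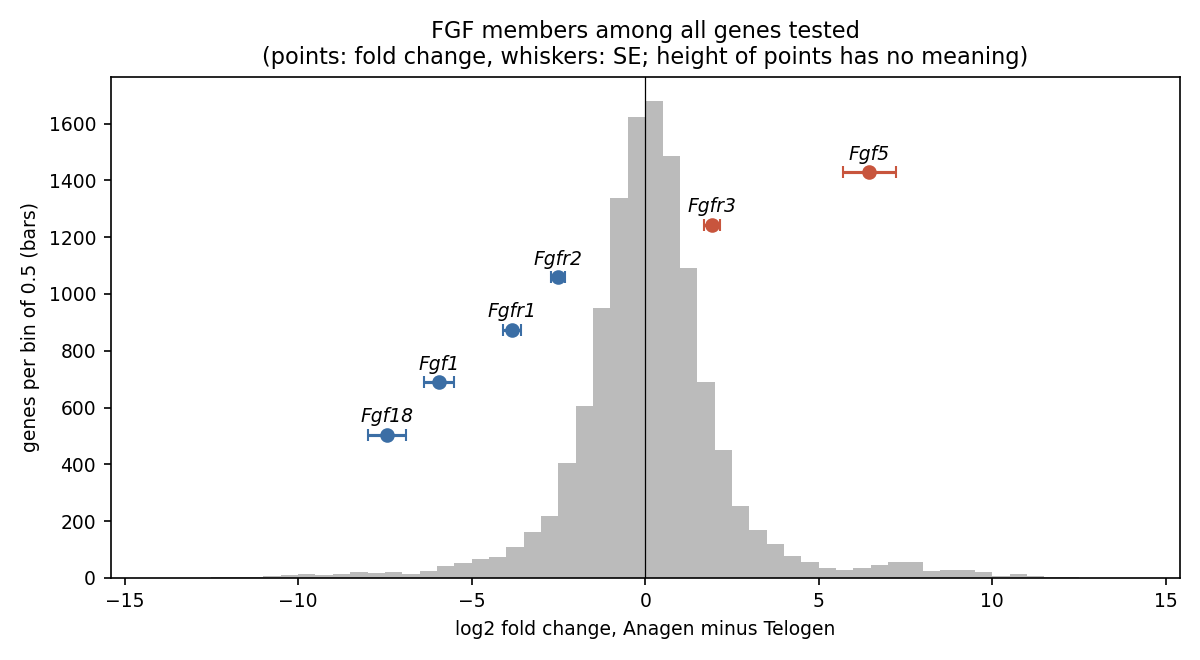
Log2 fold change (Anagen minus Telogen, horizontal axis) of the 6 tested members as points with SE whiskers, over a histogram of all 12266 genes tested (vertical axis, genes per bin); the height of a point has no meaning. Fgf18 at -7.45 and Fgf1 at -5.94 lie in the far lower tail and Fgf5 at 6.46 in the upper tail, while Fgfr3 at 1.93 lies nearer the bulk.

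Per length, the receptors stood in a different order in each phase. In Telogen the level in CPM per kilobase was 142 ± 17.01 for Fgfr2, 37.6 ± 3.33 for Fgfr1 and 24.1 ± 6.01 for Fgfr3 (SD, n = 3). In Anagen it was 91.9 ± 12.7 for Fgfr3, 24.7 ± 4.86 for Fgfr2 and 2.61 ± 0.77 for Fgfr1 (SD, n = 4). Neighbours in both orders were separated by more than their SDs, and their library ranges did not overlap within a phase. Within a library, where scaling between libraries has no part, Fgfr2 exceeded Fgfr3 by 6.07, 5.20 and 6.80 times in Telogen 1 to 3. In Anagen 1 to 4 Fgfr3 exceeded Fgfr2 by 3.65, 3.58, 5.57 and 2.72 times. The summed level of the 3 receptors went from 204 ± 25.99 to 119 ± 11.7 CPM per kilobase, a smaller change than that of Fgfr1 or Fgfr2 alone.

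The ligands exchanged places more fully. Per length, Fgf18 took 43.2% to 71.3% of the reads of the measured ligands in Telogen and Fgf1 nearly all of the rest, and Fgf5 took 0.286% at most. In Anagen Fgf5 took 77.3% to 92.7%, Fgf1 4.88% to 12.1% and Fgf18 1.10% to 10.6%. Which of Fgf18 and Fgf1 led in Telogen differed between libraries: Fgf18 was higher per length by 2.04 and 2.51 times in Telogen 1 and Telogen 2, and Fgf1 by 1.31 times in Telogen 3. The order of the Telogen ligands also turned with the scale, since by reads without length Fgf1 took 60.1 ± 14.3% and Fgf18 39.8 ± 14.2% (SD, n = 3). The summed ligand level went from 265 ± 58.2 to 23.3 ± 2.09 CPM per kilobase, so that Fgf5 in Anagen (20.6 ± 3.36) did not reach the Telogen level of Fgf18 (154 ± 9.87) or Fgf1 (110.1 ± 68.0).

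**Figure D3:**
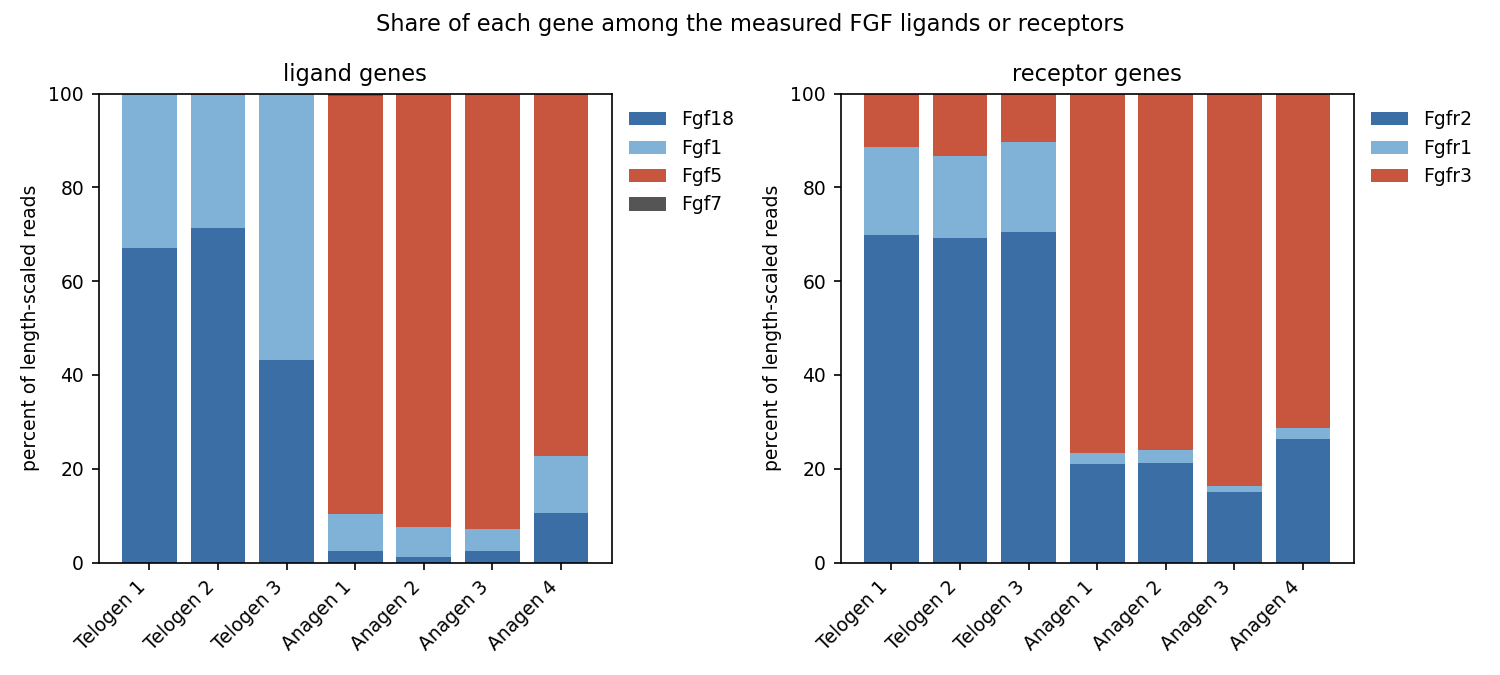
Percent of length-scaled reads (vertical axis) that each gene took among the measured FGF ligands (left) and receptors (right) in each of the 7 libraries (horizontal axis). Fgf18 and Fgf1 fill the Telogen ligand bars and Fgf5 takes 77.3% to 92.7% of the Anagen bars; Fgfr2 takes 69.1% to 70.4% of the Telogen receptor bars and Fgfr3 71.4% to 83.6% of the Anagen bars.

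The rest of the FGF family gave little signal. Of 16 other ligand genes, 6 had a row and 2 were tested, the intracellular family member Fgf11 and the endocrine ligand Fgf21. Neither passed (0 by edgeR and 0 by DESeq2, with 0 even before adjustment at 0.05), and Fgf21 passed without Telogen 3, the Telogen library that held all 5 Telogen reads of Fgf21. Fgf11 stood at 4.02 ± 0.95 and 3.33 ± 1.66 CPM in Telogen and Anagen, and Fgf21 at 0.330 ± 0.572 and 1.81 ± 0.86 CPM. Among 11 other receptors, co-receptors and partners, 6 were tested, of which 3 rose and 1 fell, 66.7% against 49.5% of all genes. Flrt3, which encodes a membrane protein that binds FGF receptors, rose 4.47-fold (178 ± 80.1 to 795 ± 118 CPM), and its relative Flrt1, with 0 reads in Telogen, was at least 30.9-fold higher (at least 19.5-fold without Telogen 2 and 20.8-fold without Anagen 4). Flrt2 was at 202 ± 13.7 and 190.1 ± 21.7 CPM and did not pass. L1cam rose 1.89-fold, and lost the call under GC and length offsets (log2 fold change 0.21), and on leaving out Telogen 1, Telogen 2 or the pair Anagen 1 and Anagen 2. Nrp1, a co-receptor for several growth factors, fell 10.2-fold, 19.9-fold without Anagen 2 and 23.9-fold without Anagen 1 and Anagen 2; without Telogen 2 it was 6.62-fold lower and no longer past the threshold (edgeR, adjusted p = 0.0634). Without Telogen 2, 2 of these genes passed, and the 49.5% of all genes is from the full data.

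Of 30 genes of signal transduction below the receptors, 14 rose, 1 fell and 15 did not pass. The share that passed in either direction was near the 49.5% of all genes. By direction, 25.8% of all genes rose and 23.7% fell. In the full data 8 changed by 2-fold or more. Without Anagen 1 and Anagen 2, 10 rose and 2 fell, and the share of all genes in that setting is not given here. The docking protein gene Gab1 rose 6.73-fold (34.6 ± 7.61 to 233 ± 41.0 CPM) and Plcg1, a phospholipase bound by FGF receptors, 5.19-fold (3.32-fold with offsets for GC content and length). Smaller rises were seen for Stat3 (2.35-fold) and Nras (1.88-fold). Pik3r1, a regulatory subunit of PI3 kinase, fell 5.39-fold (622 ± 70.2 to 116 ± 9.87 CPM). The adaptor Frs2, used by FGF receptors among others, stood at 0.53 ± 0.29 (SE) on the log2 scale and did not pass. The median log2 fold change of the list was 0.66, against 0.09 over all genes tested.

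Feedback and target genes of the pathway were mixed: of 16 tested, 2 rose, 4 fell and 10 did not pass, 37.5% against 49.5% of all genes. Spry1, an inhibitor of FGF signalling induced by it, fell 9.58-fold, from 55.5 ± 12.5 to 5.78 ± 2.28 CPM (log2 fold change -3.26 ± 0.37, SE; edgeR, adjusted p = 5.05e-05). Myc fell 3.15-fold, and Ccnd1, a cyclin of G1, rose 3.95-fold. Dusp4, an ERK phosphatase with 0 reads in Telogen, was at least 17.1-fold higher (10.8-fold without Telogen 2). Spry2 (1.91-fold lower) and Il17rd, which encodes the FGF antagonist SEF (9.04 ± 4.59 to 2.25 ± 2.28 CPM), passed narrowly and each lost the call on leaving out most single libraries. Il17rd was 7.75-fold lower without Anagen 3 and 6.20-fold lower under GC and length offsets, and without Anagen 1 and Anagen 2 it was 2.66-fold lower (edgeR, adjusted p = 0.190). The usual readouts of FGF signalling Dusp6 (log2 fold change -0.34 ± 0.40, SE), Etv5 (0.13 ± 0.62, SE) and Etv4 (-1.95 ± 1.21, SE) did not pass.

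Heparan sulfate enzymes, proteoglycans and FGF carriers were measured with 26 tested genes, of which 10 rose, 8 fell and 8 did not pass, so that 69.2% passed against 49.5% of all genes. The carrier Fgfbp1, which releases FGFs from the matrix, fell 26.3-fold, from 146 ± 37.6 to 5.54 ± 3.72 CPM (log2 fold change -4.72 ± 0.53, SE; edgeR, adjusted p = 5.01e-05), and 14.8-fold with offsets for GC content and length. Its relative Fgfbp3 was at 5.35 ± 4.38 and 3.83 ± 1.22 CPM and did not pass. The syndecans parted: Sdc1 rose 4.57-fold (365 ± 80.1 to 1669 ± 149 CPM) and Sdc2 fell 3.50-fold. The glypican gene Gpc1 rose 5.01-fold (7.88-fold without Telogen 2, 2.88-fold with offsets for GC content and length) and the sulfotransferase gene Ndst2 rose 5.13-fold (3.20-fold with the offsets). The 3-O-sulfotransferase genes also parted. Hs3st3b1 had 0 reads in Anagen and was at least 347-fold lower (150.1-fold without Telogen 2), while Hs3st1, with 0 reads in Telogen, was at least 6.97-fold higher (4.39-fold without Telogen 2). Hs3st3a1 too had 0 reads in Telogen, and it had 10, 35, 0 and 32 reads in Anagen 1 to 4, so the groups overlapped. With reads pooled over each group it was at least 7.06-fold higher (4.45-fold without Telogen 2), and it did not pass the filter. Without Anagen 1 and Anagen 2, 7 members of the list rose and 5 fell. The 49.5% of all genes is from the full data, and the share with these libraries left out is not given here.

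Regulators of FGF receptor splicing, which do not all favour the epithelial form, were also measured. Of 8, 4 rose, 2 fell and 2 did not pass, and 49.5% of all genes passed. Without Anagen 1 and Anagen 2, 3 rose and 2 fell, and the share of all genes in that setting is not given here. Esrp2 rose 21.98-fold, from 6.90 ± 2.27 to 150.9 ± 47.6 CPM (log2 fold change 4.46 ± 0.35, SE; edgeR, adjusted p = 4.82e-06). Its relative Esrp1, also an epithelial splicing factor, rose 1.72-fold (194 ± 6.46 to 335 ± 11.6 CPM). Per length Esrp1 stood above Esrp2 in both phases, at 48.8 ± 1.62 against 2.57 ± 0.846 CPM per kilobase in Telogen and 84.0 ± 2.92 against 56.2 ± 17.7 in Anagen. Ptbp1, a splicing repressor, rose 3.21-fold, and Hnrnpf and Mbnl1 fell 4.17-fold and 2.41-fold. Tia1 rose 1.69-fold, a call lost without Telogen 1 or 2, without any 1 Anagen library and without both Anagen 1 and Anagen 2.

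Of 10 transcription factors of the bulge, 4 rose, 4 fell and 2 did not pass, where 25.8% of all genes rose and 23.7% fell. These shares are from the full data (2 factors rose and 4 fell without Anagen 1 and Anagen 2, with no share of all genes given here). Foxp1, which in mice is known to raise Fgf18 in the bulge, fell 5.36-fold (676 ± 183 to 126 ± 11.8 CPM; log2 fold change -2.42 ± 0.21, SE; edgeR, adjusted p = 7.28e-06). Nfatc1 fell 22.5-fold (35.3-fold with offsets for GC content and length), Foxc1 4.20-fold (6.76-fold with the offsets) and Lhx2 2.24-fold. Sox9 and Tcf7l2 rose 2.50-fold and 2.22-fold.

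**Figure D4:**
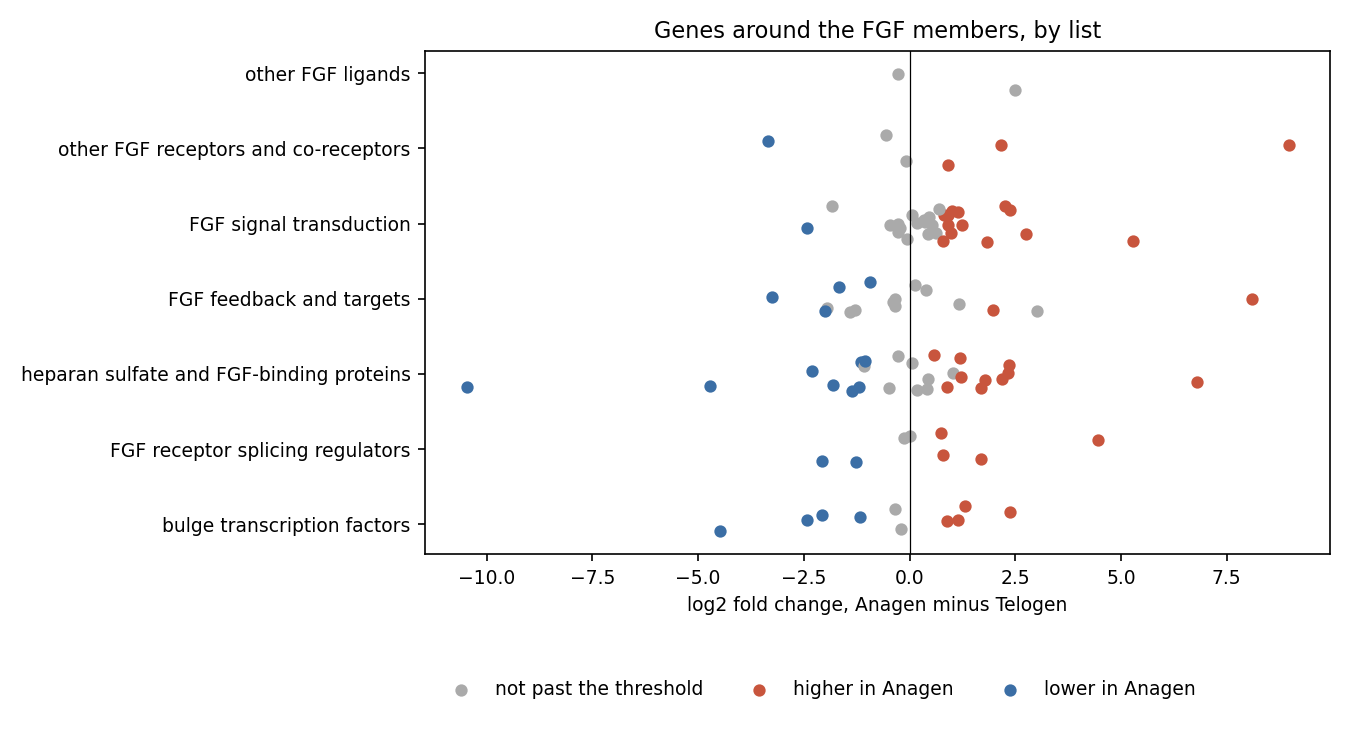
Log2 fold change (Anagen minus Telogen, horizontal axis) of each tested gene in the lists around the FGF members (vertical axis), coloured by whether it rose, fell or did not pass the edgeR test; values of genes with 0 reads in a group depend on the fit and are no bounds. Signal transduction has 14 of 30 tested genes higher and 1 lower, and the heparan sulfate list has 10 of 26 higher and 8 lower. Of all genes tested, 25.8% were higher and 23.7% lower.

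The genes whose profile over the 7 libraries lay closest to each member were found by the root mean square distance of log2 CPM centred on each gene's mean, a description in which the difference between the phases dominates. A prior count of 2 was added before taking log2, which keeps values at 0 reads finite. Predicted genes (Gm with a number, or Rik) and the members were left out of the genes compared and counted. Around Fgf18 these were Krt77, a suprabasal keratin (0.53 log2 units), Gfra1, a receptor for GDNF (0.59), and Col8a2, a collagen gene (0.62), and 0 genes lay within 0.5. Around Fgf1 they were Prlr, the prolactin receptor (0.33), the potassium channel gene Kcnd3 (0.35) and Ccdc88c (0.37). In Anagen, Kcnd3 and Ccdc88c were at 0 CPM in every library, and Krt77 was at 0.214 CPM or less. Their Anagen log2 values thus rest mostly on the prior count, and their distances depend on it. Prlr, like Fgf1, had its highest level in Telogen 3, at 512 CPM against 254 and 279 CPM. It was picked for likeness over these same libraries, so this follows from the choice. Around Fgf5 the closest genes were Aldh1a2, which makes retinoic acid (0.45), Icosl, a costimulatory ligand for T cells (0.61), and Wfdc18 (0.65). All 3 were higher in Telogen 2 than in the other Telogen libraries, but at only 1.28, 2.08 and 1.12 CPM there. They too were picked for likeness over these libraries, so this is no separate observation. The receptors had many neighbours: 86 genes lay within 0.5 of Fgfr1 (closest Gng10, Trim2 and Add3), 351 of Fgfr2 (Dut, Tcf12 and Gorab) and 745 of Fgfr3 (B3gntl1, B3gnt9 and Etl4). Among the members themselves, Fgfr1 and Fgfr2 were the closest pair (0.68) and Fgf5 and Fgf18 the most distant (7.37).

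The sort and its libraries bear on all of these values. Total counts ranged from 5097457 to 6453337 over the Telogen samples and from 13719893 to 17042690 over the Anagen samples, so depth cannot be told apart from phase either. All 14 keratinocyte and follicle markers were detected in both groups, summing to 21849 to 30924 CPM in Telogen and 31477 to 35801 CPM in Anagen, but 6 of them rose and 5 fell. Beside this and the marker counts below, 25.8% of all genes tested rose and 23.7% fell. The bulge markers Krt15 and Cd34 fell 50.5-fold and 40.3-fold, from 8636 ± 1995 to 171 ± 65.1 CPM and from 511 ± 20.4 to 12.7 ± 5.30 CPM. Krt17 and Krt14, keratins of the outer root sheath and basal layer, rose 22.9-fold and 6.85-fold. Lgr5 itself averaged 461 ± 13.7 CPM over the Telogen samples and 56.2 ± 30.6 over the Anagen samples (SD). In a sorted bulk sample fewer cells of a type and less RNA per cell cannot be told apart. Leukocyte markers, 13 of 15 of them listed, summed to 5.88 to 34.3 CPM in Telogen, highest in Telogen 3, and to 1.54 to 2.64 CPM in Anagen, where Cd3e, Cd3g, Cd3d, Cd207 and Tyrobp were at 0. The fibroblast genes Dcn, Lum, Pdgfrb and Mfap5 were at 0 in Telogen, and 8 of 13 tested fibroblast genes rose and 2 fell. Dermal papilla markers, 10 of 13 listed, summed to 346 to 461 CPM in Telogen and 21.4 to 62.2 CPM in Anagen, with Alpl and Rspo2 at 0 in Telogen. Most of the Telogen sum was Igfbp3 (303 ± 64.2 CPM), and of 8 genes tested 4 fell and 2 rose, the latter being Vcan (0.107 ± 0.185 to 11.8 ± 5.79 CPM) and Alpl (to 1.01 ± 0.386 CPM). Endothelial genes summed to 1.28 to 2.85 CPM in Telogen and 2.45 to 10.7 CPM in Anagen, where Cdh5, at 0 in Telogen, averaged 4.32 ± 2.55 CPM. Muscle genes summed to 2.08 to 4.56 CPM in Telogen and 25.1 to 48.1 CPM in Anagen, and 3 of 4 tested rose, among them Acta2 (0.502 ± 0.436 to 20.4 ± 6.15 CPM) and Myh4 (from 0 reads to 9.05 ± 2.21 CPM). Melanocyte genes summed to 166 to 319 CPM in Telogen and 19.8 to 24.7 CPM in Anagen, a Telogen sum that was mostly Mitf (211 ± 83.3 CPM, against 8.04 ± 4.03 in Anagen), while the pigment gene Pmel rose (4.63 ± 1.19 to 10.7 ± 3.14 CPM). Schwann cell genes summed to 358 to 1685 CPM in Telogen and 973 to 1407 CPM in Anagen, and of 9 tested 4 rose and 3 fell. The part of these cells in the members' changes was not tested. All 6 members kept their direction and call without Anagen 1 and Anagen 2, which is no test of that part. Anagen 3 and Anagen 4 still held fibroblast and muscle transcripts (Dcn at 20.6 and 20.3 CPM, Acta2 at 23.0 and 11.2 CPM). The Telogen libraries were the same in that setting.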

How the data were processed

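RNA from 3 Telogen and 4 Anagen samples was sequenced. Per the labels, RNA was extracted with Trizol and libraries were made with the Ovation system. The deposited table holds raw counts of reads on exons and RPKM values, per the file headers. The submitters' processing notes name build mm10. The sources used here give no aligner, counter or strand setting. The deposited RPKM values equalled count over length and total count in 107905 of 107905 cases (relative tolerance 1e-06) and were not used further. Within groups, Spearman correlations were 0.945 to 0.976 and chi-square per degree of freedom at least 22.5, so no library copied another. Counts were tested with edgeR 4.0.16 in R 4.3.3 (quasi-likelihood, robust, TMM, minimum count 10 and minimum total 15) over 12266 genes, with Benjamini-Hochberg adjusted p under 0.05. Each SE was derived from the quasi-likelihood F value as |log2 fold change|/√F. A fold against 0 reads uses a floor of 3 counts over the group. The members and lists were chosen with earlier results of these data known. Named genes were the members, up to 6 called genes per list with the smallest adjusted p plus those at 0 in 1 group and over 1 CPM in the other, and the 3 nearest genes per member; genes named beyond these, such as Dusp6, Etv5 and Frs2, were chosen after their values were seen. Some genes that the rule names are not reported here. Alternatives were DESeq2 1.42.0, RLE factors, no filter, thinning to the lowest total, offsets for GC content and length, a replicate block and leaving out libraries. Intervals and floors cover counting error only.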

Additional observations from a re-analysis of the deposited data

Results flagged for a closer look

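Within the 4 Anagen libraries, 2 values stood apart from the rest by the gap test of Dixon, of 51 sets of values tested; chance flags about 1 in 20 groups. Fgf18 in Anagen 4 was at 3.43 CPM against a group median of 0.919 CPM, and Sox9 in Anagen 4 was at 1776 CPM against a median of 2299 CPM. Anagen 4 also had the lowest Fgf5 level of the Anagen libraries, 39.4 CPM, and the highest Fgf1 level, 9.65 CPM. Its fibroblast sum (139 CPM) was near that of Anagen 3, and its Cd34 level, 9.58 CPM, lay within the range of the other Anagen libraries.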

How the results depend on the processing

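All 6 tested members kept direction and call in 84 of 84 recomputed values, over 14 alternatives each, and 6 members passed under all 15 settings of the count. The log2 fold change ranged from -8.38 to -6.83 for Fgf18, -6.21 to -5.31 for Fgf1, 5.90 to 12.28 for Fgf5 (the highest without Telogen 2, against 0 reads), -4.61 to -3.71 for Fgfr1, -3.21 to -2.42 for Fgfr2 and 1.18 to 2.16 for Fgfr3. Fgf7 was not tested by edgeR except with no filter, where it did not pass. The number of genes that passed was 4324 to 6636 over the settings. Per kilobase in place of reads, the Telogen share was 39.4% for Fgf1, 60.6% for Fgf18, 69.8% for Fgfr2 and 11.7% for Fgfr3, in place of 60.1%, 39.8%, 71.7% and 9.85%; gene length is the whole of this difference. Of the lists, 0 to 1 other ligands and 2 to 4 other receptors passed when 1 library was left out, and 8 signal transduction genes when a 2-fold change was required in place of 15, a smaller number by construction. Of 484 values for 35 named pathway genes, 457 kept their call, 27 lost it and 0 reversed; those that lost it were of Nrp1, L1cam, Spry2, Il17rd and Tia1, and the cause was not tested. The replicate numbers are not said to pair the samples. Deviations of same-numbered libraries correlated at 0.00, 0.08 and -0.05, and those of differently numbered libraries at -0.11 to 0.10. With so few libraries these values cannot settle whether samples were paired. Under the replicate block, the number of all genes changed was 4767 in place of 6072, and Fgf18 changed by -8.38, where -8.36 was found without Anagen 4, the library the block also leaves out; the block ended 1 call among the named genes, that of Il17rd. Depth limits what can be said of Fgf7.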
